A study of Oryctolagus cuniculus with 17 samples.

Results

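The FGF ligands FGF1, FGF2, FGF7, FGF9, FGF10 and FGF18 and the receptors FGFR1, FGFR2, FGFR3 and FGFR4 were examined in the lung of preterm rabbits. Members were picked by gene symbol, and 9 of the 10 listed genes had an entry among the 13827 genes of the count table: 6 ligands and 3 receptors. FGFR3 was not analysed here. Each of the 9 genes was the only annotated gene of its locus, and all 9 were among the 13142 genes tested. RNA-seq counts came from lung homogenates, by the labels and the methods of the right lung, of New Zealand White pups that were delivered by cesarean section on day 28 of gestation and fed a milk replacer. Pups were kept in 95% oxygen (hyperoxia) or 21% oxygen (normoxia) until postnatal day 3, 5 or 7, which gave the hyperoxic groups HT3, HT5 and HT7 and the normoxic groups NT3, NT5 and NT7. There were 17 samples, 8 hyperoxic and 9 normoxic, with 3 per group except for 2 in HT5. Preterm delivery was shared by all groups, so it could not be compared, and neither litter nor sex is given in the labels. P-values therefore measure the spread between these samples.

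FGF ligands are secreted proteins that bind receptor tyrosine kinases of the FGFR family together with heparan sulfate, a sulfated sugar chain carried by syndecans, glypicans and perlecan. In the lung, FGF7 and FGF10 come from mesenchymal cells and act on the epithelial splice form of FGFR2, and FGF10 drives airway branching. FGF9 is made by mesothelium and epithelium and acts on mesenchyme, whereas FGF18 is a mesenchymal ligand linked to formation of alveoli and elastic fibers. FGFR3 and FGFR4 act together in postnatal alveolar formation in mice. Gene counts do not separate the receptor splice forms.

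Total counts per sample ranged from 13123731 to 18111086 when every locus was summed a single time, and the TMM factors used for scaling lay between 0.958 and 1.05. Levels are given as CPM, counts scaled for library size, which depend on gene length and are compared within a gene only. A gene passed a comparison at an adjusted p under 0.01 in edgeR's quasi-likelihood test (Benjamini-Hochberg over all genes tested), and was called a DEG if the log2 fold change (log2FC) was also above 2 or below -2. Defining lung markers were present, with SFTPC, which encodes a surfactant protein, in all samples. In 4 samples, markers of other tissues were above the other samples of their group: heart muscle markers in NT3 replicate 2 (summed level 63.3 CPM, lowest NT3 sample 28.3 CPM), skeletal muscle markers in HT3 replicate 2 (396 CPM, lowest HT3 sample 82.6 CPM) and HT5 replicate 1 (357 CPM, against 57.4 CPM in the other HT5 sample), and cartilage markers, mostly MATN1, in NT5 replicate 1 (314 CPM, lowest NT5 sample 160 CPM). The heart list was also above its group in HT3 replicate 2 (55.8 CPM, lowest HT3 sample 19.4 CPM) and HT5 replicate 1 (36.1 against 11.5 CPM), mostly through MYH7, which skeletal muscle expresses too. On day 7 the sums of these lists were lower in every HT7 sample than in every NT7 sample. Heart markers summed to 6.61 to 11.2 against 28 to 32.5 CPM, and skeletal muscle markers to 62 to 72.2 against 91.4 to 111 CPM. Cartilage markers summed to 167 to 191 against 204 to 214 CPM. Of single markers, 1 heart and 1 skeletal muscle marker fell on day 7, and 1 cartilage marker rose. No FGF gene passed on day 3 with or without any of the day 3 samples, and the day 5 count of 5 was 5 without NT5 replicate 1 and 4 without HT5 replicate 1, where FGF10 was lost (adjusted p = 0.0176, edgeR). In whole tissue, fewer cells of a type and less RNA per cell cannot be told apart.

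Hyperoxia left the 9 FGF genes with no call on day 3, 5 calls on day 5 and 6 calls on day 7. The direction was mostly downward: FGF1, FGF10, FGFR1 and FGFR4 were lower on days 5 and 7, FGF18 was lower on day 7, and FGF7 was higher on days 5 and 7. FGF2, FGF9 and FGFR2 passed on no day. On day 3, 0 members passed in either direction by edgeR, against a background of 0.107% of all genes tested passing as lower and 0.0989% as higher, with 0.0533% as DEGs. An unadjusted p under 0.05 was reached by 4 members on that day, and by 2013 of the 13142 genes tested. DESeq2 called 0 members and 1.64% of all genes with an adjusted p. On day 5, 4 members passed as lower where 7.62% of all genes did, and 1 as higher where 8.56% did. The day 5 count of 5 became 1 without HT5 replicate 2, 3 without NT5 replicate 3 and 0 with HT5 and NT5 fitted alone, and was 7 by DESeq2, which added FGF2 and FGF18. By DESeq2, 24.4% of all genes with an adjusted p passed on day 5. On day 7, 5 passed as lower by edgeR against 16.9% of all genes, and 1 as higher against 16.7%. DEGs numbered 0 of the members on day 5, where 1.58% of all genes were DEGs, and 3 on day 7, where 4.59% were. The median log2FC of the 9 genes was -0.35, -1.21 and -1.45 on days 3, 5 and 7, beside medians over all genes tested of 0.00, -0.02 and -0.01. FGF1 was also picked by the study as a gene of interest on these same samples, so its fall is not independent evidence.

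**Figure D1:**
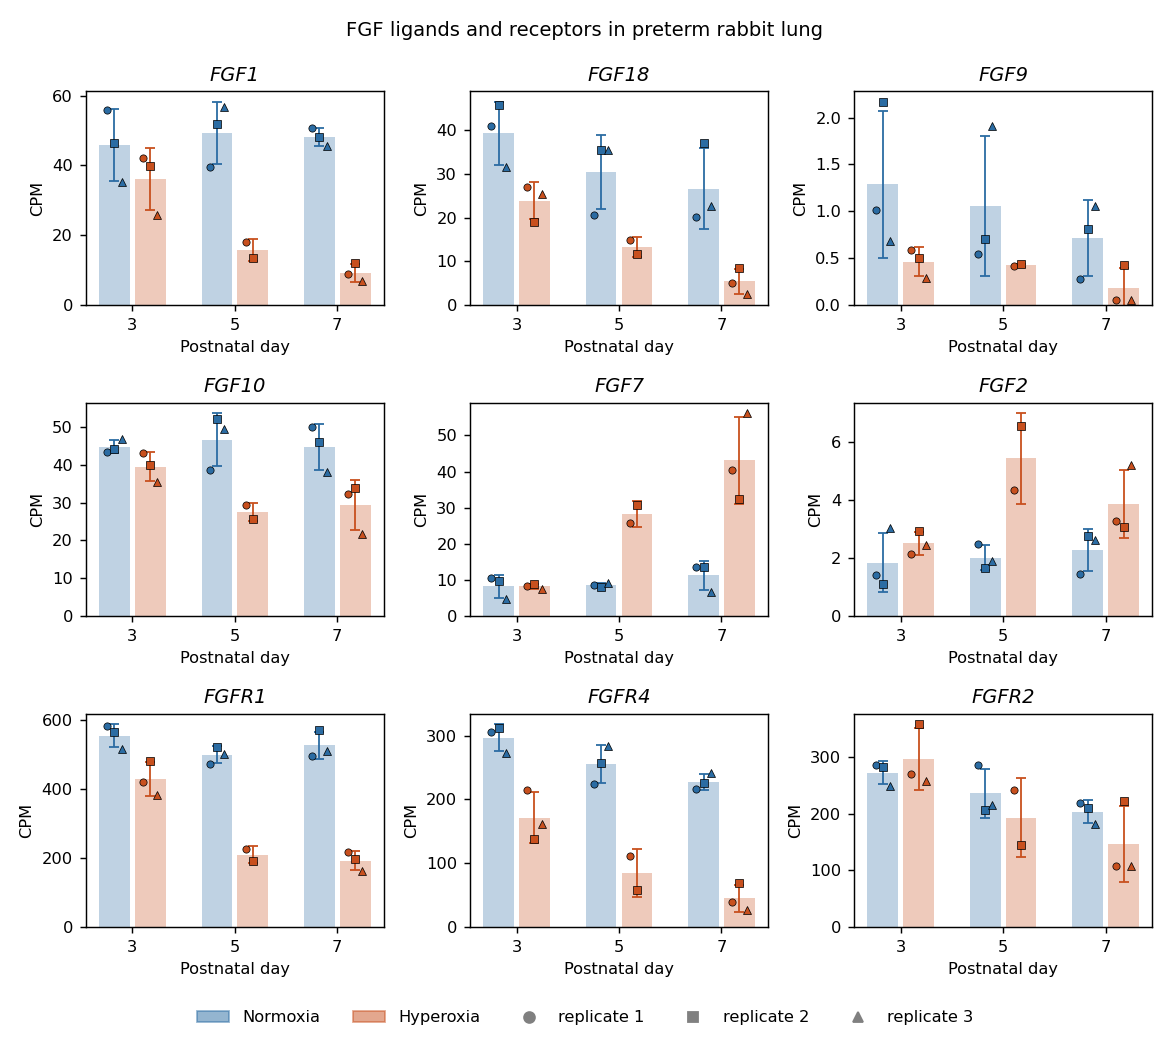
Levels of the 9 FGF genes in CPM (y axis, a separate linear scale from 0 for each gene) by postnatal day (x axis) in normoxia (blue) and hyperoxia (orange); bars are group means, error bars the SD over 3 samples (2 in HT5), and symbols single samples by replicate number. The 3 HT7 samples of FGF1 sit between 6.81 and 12 CPM, all below the NT7 samples, and those of FGF7 between 32.5 and 56.3 CPM, all above them.

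FGF1 and FGF18 were the ligands called DEGs on day 7. FGF1 is a ligand of all FGF receptors that lacks a classical secretion signal. The table lists it as ENSOCUG00000013987 on chromosome 3, from 24578886 to 24596987 on the minus strand of OryCun2.0, the build named in the submitters' processing notes. On day 3 its level was 56, 46.4 and 35.3 CPM in NT3 and 42.2, 39.9 and 25.8 CPM in HT3, and the groups overlapped (log2FC -0.35, adjusted p = 0.491, edgeR). On day 5 it read 39.4, 51.9 and 56.7 CPM in NT5 against 17.9 and 13.4 CPM in HT5. On day 7 the NT7 samples read 50.6, 48.2 and 45.5 CPM and the HT7 samples 8.88, 12 and 6.81 CPM. On both later days every hyperoxic sample lay below every normoxic sample. FGF1 was 3.16-fold lower on day 5 (log2FC -1.66 ± 0.28 SE, adjusted p = 0.000726, edgeR) and 5.21-fold lower on day 7 (log2FC -2.38 ± 0.25, 95% interval -2.91 to -1.86, adjusted p = 5.79e-06). Without HT5 replicate 2 the day 5 call of FGF1 was lost (adjusted p = 0.0251).

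FGF18, a mesenchymal ligand, is listed as ENSOCUG00000011124 on chromosome 3, from 52642090 to 52712398 on the plus strand. It already lay lower in every HT3 sample (27, 19.1 and 25.5 CPM) than in every NT3 sample (40.9, 45.7 and 31.5 CPM), but did not pass (log2FC -0.72, adjusted p = 0.319, edgeR). On day 5 the values were 20.6, 35.4 and 35.4 CPM in NT5 and 14.8 and 11.6 CPM in HT5, again without overlap and without passing by edgeR (log2FC -1.21, adjusted p = 0.0297), whereas DESeq2 called FGF18 (adjusted p = 0.00643). The separation was wider on day 7. The NT7 samples read 20.2, 37.2 and 22.6 CPM and the HT7 samples 5.13, 8.47 and 2.61 CPM, and FGF18 was 4.96-fold lower, a DEG (log2FC -2.31 ± 0.36 SE, adjusted p = 0.000138). Leaving out single samples moved this log2FC to between -2.78 and -1.96. At -1.96 FGF18 still passed but was no longer a DEG.

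FGF10, the branching ligand, is listed as ENSOCUG00000008499 on chromosome 11, from 64991608 to 65079991 on the minus strand. On day 3 the HT3 samples (43.2, 39.9 and 35.5 CPM) lay just below the NT3 samples (43.5, 44.1 and 46.8 CPM), with a log2FC of -0.18 that did not pass (adjusted p = 0.649, edgeR). On day 5 it read 38.7, 52.1 and 49.4 CPM in NT5 and 29.3 and 25.8 CPM in HT5, which was 1.7-fold lower (log2FC -0.76 ± 0.19 SE, adjusted p = 0.00759). On day 7 the NT7 samples read 50, 46.1 and 38.1 CPM and the HT7 samples 32.3, 34 and 21.8 CPM. This was 1.52-fold lower (log2FC -0.61 ± 0.17, adjusted p = 0.00736). FGF10 was the passing member closest to the threshold on both days, and its call depended on single samples: on day 7 it was lost without HT7 replicate 1 or 3 or NT7 replicate 1 or 2 (adjusted p from 0.0108 to 0.0398), and on day 5 without either HT5 sample or NT5 replicate 2 or 3 (adjusted p from 0.0176 to 0.0981). With only the groups compared in the model it was lost on both days (adjusted p = 0.042 on day 7 and 0.0388 on day 5).

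FGF7, also called keratinocyte growth factor, was the only member that rose in hyperoxia by this test. It is listed as ENSOCUG00000006713 on chromosome 17, from 22973475 to 23044929 on the minus strand. On day 3 the groups overlapped, with 10.5, 9.57 and 4.61 CPM in NT3 and 8.34, 8.86 and 7.59 CPM in HT3 (log2FC 0.00, 95% interval -0.65 to 0.66). The day 5 values were 8.54, 7.96 and 9.15 CPM in NT5 and 25.7 and 30.8 CPM in HT5, a 3.31-fold rise (log2FC 1.72 ± 0.33 SE, adjusted p = 0.0017, edgeR). By day 7 it read 13.7, 13.6 and 6.6 CPM in NT7 and 40.5, 32.5 and 56.3 CPM in HT7, a 3.82-fold rise (log2FC 1.93 ± 0.31, adjusted p = 0.00015). The day 5 call was lost without HT5 replicate 2 (adjusted p = 0.0306). FGF7 and FGF10, which share the epithelial form of FGFR2 as receptor, thus passed in opposite directions on days 5 and 7.

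FGF2 and FGF9 were the lowly counted ligands. FGF2, or basic FGF, is listed as ENSOCUG00000000476 on chromosome 15, from 98654462 to 98739070 on the plus strand. Its levels on day 5 were 2.48, 1.65 and 1.91 CPM in NT5 and 4.33 and 6.55 CPM in HT5. Both HT5 samples lay above NT5, yet FGF2 did not pass by edgeR (log2FC 1.43, adjusted p = 0.0167), whereas DESeq2 called it (adjusted p = 0.00542). On day 7 it read 1.44, 2.77 and 2.62 CPM in NT7 and 3.29, 3.08 and 5.22 CPM in HT7 (log2FC 0.77, 95% interval -0.04 to 1.57, adjusted p = 0.109, edgeR).

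FGF9, the mesothelial and epithelial ligand, is listed as ENSOCUG00000000732 on chromosome 8, from 43047133 to 43084491 on the minus strand. It never exceeded 43 counts in a sample. It had 18, 43 and 12 counts in NT3 against 10, 9 and 5 in HT3, and 9, 11 and 37 counts in NT5 against 6 and 8 in HT5. On day 7 it had 4, 12 and 17 counts in NT7 and 1, 7 and 1 in HT7. The groups overlapped on day 7, and FGF9 was the member nearest to the threshold among those that missed it (log2FC -2.02 ± 0.80 SE, adjusted p = 0.0507, edgeR). Without HT7 replicate 2 it passed (log2FC -3.55, adjusted p = 0.00769). On days 3 and 5 FGF9 did not pass, and its 95% interval was wide (log2FC -2.93 to -0.02 and -3.03 to 0.40).

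The receptors FGFR1 and FGFR4 were both lower, and FGFR2 did not pass. FGFR1, the main receptor of mesenchymal cells, is listed as ENSOCUG00000004150 on an unplaced scaffold, from 4965222 to 5016401 on the plus strand. It was the member with the smallest adjusted p on every day. On day 3 it read 581, 565 and 516 CPM in NT3 and 421, 481 and 383 CPM in HT3, and did not pass (log2FC -0.37, adjusted p = 0.154, edgeR). The day 5 values were 473, 521 and 502 CPM in NT5 and 227 and 192 CPM in HT5, a 2.38-fold fall (log2FC -1.25 ± 0.14 SE, adjusted p = 6.89e-05). By day 7, it read 496, 571 and 509 CPM in NT7 and 217, 196 and 162 CPM in HT7, which was 2.74-fold lower (log2FC -1.45 ± 0.12, adjusted p = 1.6e-06). Hyperoxic samples lay below normoxic samples on all 3 days.

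FGFR4 is listed as ENSOCUG00000003380 on chromosome 3, from 57625714 to 57634225 on the plus strand. Its day 3 levels were 306, 312 and 272 CPM in NT3 and 215, 138 and 162 CPM in HT3 (log2FC -0.79, adjusted p = 0.193, edgeR). On day 5 it read 224, 257 and 284 CPM in NT5 and 112 and 58.2 CPM in HT5, a 3-fold fall (log2FC -1.59 ± 0.33 SE, adjusted p = 0.00294). This call was lost without HT5 replicate 2 (adjusted p = 0.0678) and without NT5 replicate 3 (adjusted p = 0.0106). On day 7, with 217, 225 and 241 CPM in NT7 and 39, 69.1 and 26.9 CPM in HT7, FGFR4 was 5.07-fold lower, a DEG (log2FC -2.34 ± 0.30, adjusted p = 2.76e-05).

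FGFR2, whose epithelial form receives FGF7 and FGF10, is listed as ENSOCUG00000007069 on chromosome 18, from 68468927 to 68572794 on the minus strand. It read 286, 282 and 249 CPM in NT3 and 270, 358 and 258 CPM in HT3, and 285, 206 and 216 CPM in NT5 against 242 and 144 CPM in HT5. The groups overlapped on every day. On day 7 the values were 219, 210 and 181 CPM in NT7 and 108, 223 and 108 CPM in HT7, with a log2FC of -0.48 (95% interval -1.03 to 0.08, adjusted p = 0.145, edgeR). HT7 replicate 2 alone lay at the normoxic level. Without it FGFR2 passed as lower (log2FC -0.90, adjusted p = 0.00261), and 8 of the 9 genes then passed on day 7.

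HT7 replicate 2 was the HT7 sample nearest to the NT7 mean in 8 of the 9 FGF genes, the exception being FGFR1. The same sample was nearest in 55.3% of all genes tested and in 72.5% of the 4413 genes that passed on day 7, so it stood closer to normoxia across the transcriptome and not for FGF genes alone. FGF1, FGF7, FGF18, FGFR1 and FGFR4 passed on day 7 in each of the 13 alternative analyses, leaving out this sample among them.

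**Figure D2:**
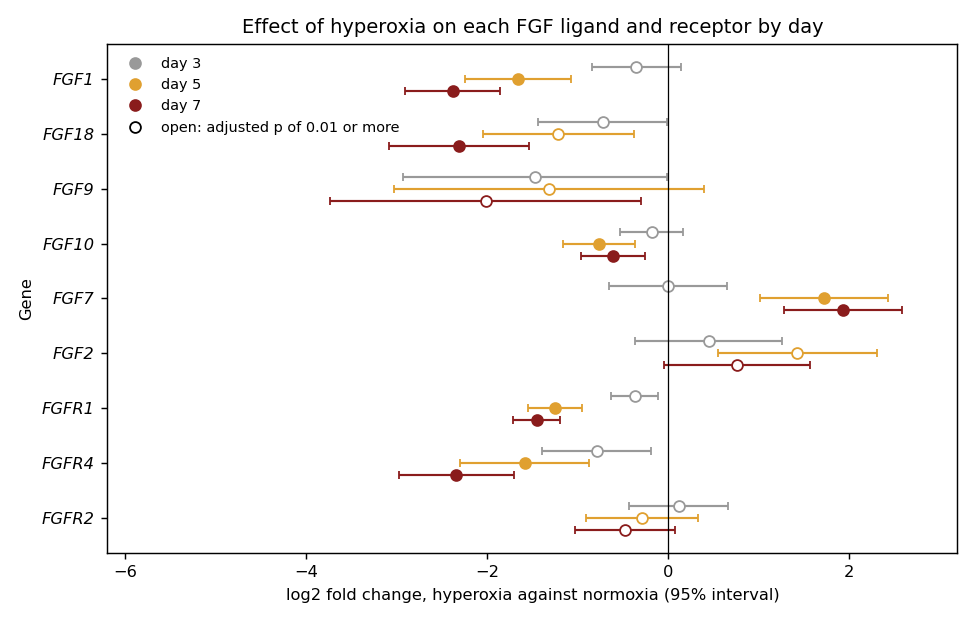
log2FC of hyperoxia against normoxia (x axis) for each FGF gene (y axis) on days 3, 5 and 7, with 95% intervals from edgeR's quasi-likelihood test; filled points have an adjusted p under 0.01. All day 3 points are open, while FGF1, FGF10, FGF7, FGFR1 and FGFR4 are filled on days 5 and 7, and FGF18 on day 7 only.

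Whether the effect of hyperoxia differed between days 3 and 7 was tested as the difference between both log2FC values, which uses the same samples as the comparisons above. For 3 members it passed, where 7.27% of all genes tested did. The effect on FGF1 was more negative on day 7 (log2FC difference -2.03 ± 0.33 SE, adjusted p = 0.00172, edgeR), and that on FGFR1 likewise (-1.08 ± 0.17, adjusted p = 0.00157). The effect on FGF7 was more positive (1.93 ± 0.43, adjusted p = 0.00755), but this call was lost in 12 of 19 alternatives, at adjusted p from 0.0102 to 0.0229: whenever 1 sample was left out except HT7 replicate 2 or NT3 replicate 3, with the 4 groups fitted alone, and with the replicate block (1.96, adjusted p = 0.0106). For FGFR4 (-1.55, adjusted p = 0.0157) and FGF18 (-1.59, adjusted p = 0.0328) the difference missed the threshold with all samples and passed without HT7 replicate 2 (adjusted p = 0.000908 and 0.00455) and by DESeq2 (adjusted p = 0.00112 and 0.00677). FGF2, FGF9, FGF10 and FGFR2 did not pass this test either.

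In normoxia the FGF genes showed no called change from day 3 to day 7. By edgeR 0 members passed NT7 against NT3, and the background was 0%, with no gene called among all genes tested. No member reached an unadjusted p under 0.05, although 824 genes did, and DESeq2 called 15 genes and 0 members. FGFR2 and FGFR4 lay lower in every NT7 sample than in every NT3 sample without passing (log2FC -0.42 and -0.38, adjusted p = 0.889 and 0.921, edgeR). FGF18 had a log2FC of -0.56, with overlap. Of the 9 members, 6 had a negative and 3 a positive log2FC. FGF1 averaged 45.9 ± 10.4 CPM (SD, n = 3) in NT3, 49.3 ± 8.93 CPM in NT5 and 48.1 ± 2.55 CPM in NT7. The widening gap of FGF1 between conditions therefore came with normoxic means between 45.9 and 49.3 CPM and hyperoxic means that ran from 36 CPM in HT3 to 15.6 CPM in HT5 and 9.23 CPM in HT7.

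Other genes of the FGF pathway were taken from 8 lists with 79 genes, of which 62 had an entry and 58 were tested. On day 3 edgeR called 0 of them, and DESeq2 0. An unadjusted p under 0.05 by edgeR was reached by 11 of the 58, and by 2013 of the 13142 genes tested. On day 5, 8 rose and 6 fell, where 8.56% and 7.62% of all genes tested did, and on day 7, 12 rose and 14 fell, where 16.7% and 16.9% did. The day 5 count of 14 became 2 without HT5 replicate 2, and 9 and 8 without NT5 replicate 2 and 3. The median log2FC of the 58 genes was 0.06 on day 5 and -0.07 on day 7, beside -0.02 and -0.01 over all genes tested.

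Of 10 coreceptor and decoy genes, 1 rose and 4 fell on day 7, against 16.7% and 16.9% of all genes. SDC3 and SDC4 encode syndecans, and GPC3 and GPC4 encode glypicans, all carriers of heparan sulfate. SDC3 read 169, 242 and 223 CPM in NT7 and 75.1, 73.6 and 66.3 CPM in HT7 (log2FC -1.56, adjusted p = 5.88e-06, edgeR). GPC3 averaged 215 ± 10.1 CPM (SD, n = 3) in NT7 and 55.3 ± 25 CPM in HT7 (log2FC -1.96, adjusted p = 5.1e-05), and GPC4 77.8 ± 11.7 and 41.2 ± 5.8 CPM (log2FC -0.92, adjusted p = 0.000249). SDC4 went the other way, from 55.9 ± 10.2 CPM in NT7 to 168 ± 47.5 CPM in HT7 (log2FC 1.59, adjusted p = 0.000329). The coreceptors thus did not move as a group.

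Of 11 genes that build or trim heparan sulfate, 2 rose and 3 fell on day 7, against the same shares of 16.7% and 16.9%. NDST1, an enzyme that sulfates the chain, read 522, 695 and 596 CPM in NT7 and 109, 189 and 106 CPM in HT7, and was a DEG (log2FC -2.17, adjusted p = 2.08e-05, edgeR). NDST2, a related enzyme (log2FC -0.71, adjusted p = 9.81e-05), and HS6ST2, a sulfotransferase (log2FC -1.08, adjusted p = 0.000494), fell as well. SULF2, an extracellular enzyme that removes sulfate from the chain, rose from 104 ± 4.51 CPM (SD, n = 3) in NT7 to 234 ± 50.7 CPM in HT7 (log2FC 1.16, adjusted p = 0.000122). SULF1, of the same kind, was the other gene that rose (log2FC 0.60, adjusted p = 0.00395), and is named although it was not among the 4 with the smallest adjusted p. Its call was lost without HT7 replicate 1 or 3 or NT7 replicate 1 or 2 (adjusted p from 0.0127 to 0.0244). FGFBP1, which releases FGFs from the matrix, was the single tested gene of its list. It read 6.84, 0.877 and 1.99 CPM in NT7 and 55.2, 33.7 and 26.5 CPM in HT7, an 11.9-fold rise (log2FC 3.57 ± 0.90 SE, adjusted p = 0.00456). This call was lost without HT7 replicate 1 (adjusted p = 0.0165), NT7 replicate 2 (0.023) or NT7 replicate 3 (0.0232), and without NT7 replicate 1 the log2FC was 4.73.

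**Figure D3:**
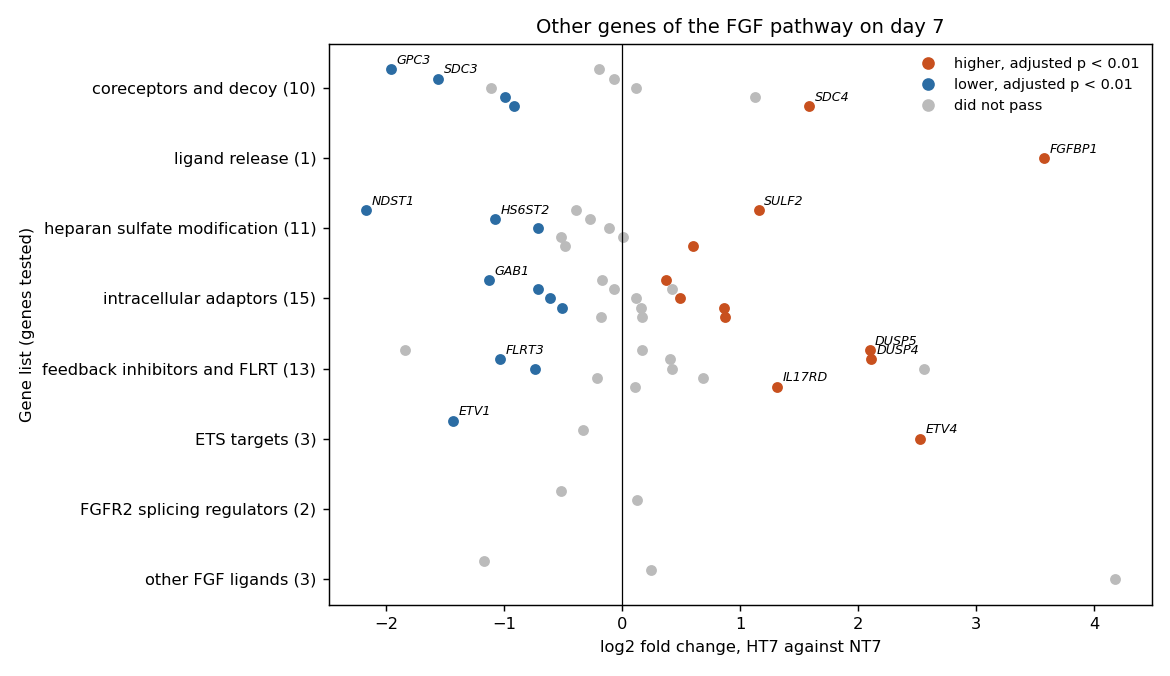
log2FC of HT7 against NT7 (x axis) for the 58 tested genes of the other FGF pathway lists (y axis, number tested in brackets), 1 point per gene, with points shifted vertically only for legibility and genes past a log2FC of 1 in either direction named where they passed. Orange points (12) rose, blue points (14) fell at an adjusted p under 0.01, and both colors occur in 5 of the 8 lists; the grey point at the right edge is FGF23, whose position depends on the prior count because it had 3 or fewer counts in every NT7 sample.

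Inside the cell, receptor signals run through adaptors to the RAF, MEK and ERK kinases. Of 15 such genes 4 rose and 4 fell on day 7, where 16.7% and 16.9% of all genes did. MAP2K1, which encodes MEK1, rose from 119 ± 2.08 CPM (SD, n = 3) to 217 ± 23.8 CPM (log2FC 0.87, adjusted p = 2.65e-05, edgeR), as did the kinase gene BRAF (log2FC 0.86, adjusted p = 0.000251) and PTPN11, which encodes the phosphatase SHP2 (log2FC 0.49, adjusted p = 0.000568). The docking protein gene GAB1 fell from 120 ± 12.6 to 54.6 ± 15.8 CPM (log2FC -1.13, adjusted p = 0.000131). Among those that fell, MAPK3 shared its locus with other annotated genes, which the counts cannot separate.

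A list of 13 tested genes held feedback inhibitors, which signals of the pathway are known to induce, and 3 FLRT genes, which encode membrane proteins that are not inhibitors of this kind. Of the whole list 3 rose and 2 fell on day 7, where 16.7% and 16.9% of all genes did. The genes that rose were inhibitors, and those that fell were FLRT2 and FLRT3. DUSP4, a phosphatase that turns off ERK, read 15, 16.5 and 17.9 CPM in NT7 and 80.6, 58.5 and 73.8 CPM in HT7 (log2FC 2.11, adjusted p = 2.63e-06, edgeR). DUSP5, of the same family, was higher as well (53, 14.3 and 20.7 CPM in HT7, 7.52, 4.92 and 8.1 CPM in NT7, log2FC 2.10, adjusted p = 0.00115). Both were DEGs, but without HT7 replicate 1 DUSP5 passed with a log2FC of 1.36, and without NT7 replicate 2 with 1.91, and was then not a DEG. IL17RD, also called SEF, averaged 55.4 ± 10 CPM (SD, n = 3) in NT5 and 236 ± 93.3 CPM (n = 2) in HT5, and 55.8 ± 7.69 and 138 ± 53.5 CPM on day 7 (log2FC 2.09 and 1.31, adjusted p = 0.000238 and 0.000916). FLRT3, whose protein binds FGF receptors and is known to promote their signals, fell (log2FC -1.04, adjusted p = 0.00062), as did FLRT2 (log2FC -0.74, adjusted p = 0.0017), which lies outside the naming rule and is given because it made up the count, and whose call was lost without HT7 replicate 1 or NT7 replicate 2 (adjusted p = 0.0102 and 0.0121). The inhibitors most often read as targets of FGF signals did not pass on day 7: SPRY1 (log2FC 0.40, 95% interval -0.08 to 0.88), SPRY2 (0.42, 0.06 to 0.79), SPRY4 (0.68, -0.11 to 1.47) and DUSP6 (0.17, -0.21 to 0.55). The log2FC of SPRY4 was 0.07 without HT7 replicate 1 and 1.03 without NT7 replicate 2. SPRY2 lay higher in every HT7 sample (36.8 to 43.5 CPM) than in every NT7 sample (25.6 to 33.6 CPM), at an adjusted p of 0.0525 by edgeR. They fall outside the naming rule and were chosen with their values known.

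ETV1, ETV4 and ETV5 are ETS transcription factors that FGF signals induce in the developing lung, and they did not move together. ETV4 read 2.46, 1.48 and 4.36 CPM in NT7 and 15.2, 16 and 16.8 CPM in HT7, a 5.74-fold rise (log2FC 2.52 ± 0.43 SE, adjusted p = 0.000286, edgeR). ETV1 fell from 97.4 ± 16.8 CPM (SD, n = 3) to 36.1 ± 13.5 CPM (log2FC -1.44, adjusted p = 0.00043), and ETV5, named to complete the list, did not pass (log2FC -0.33, adjusted p = 0.333). ESRP1 and ESRP2, which favor the epithelial splice form of FGFR2, did not pass either (log2FC 0.12 and -0.52, adjusted p = 0.538 and 0.0502), and ESRP2 did without HT7 replicate 2 (log2FC -0.81, adjusted p = 0.00209). Of 3 other tested ligands none passed on day 7 by edgeR. FGF23, a hormone-like ligand, had 69, 6 and 16 counts in HT7 and 3, 0 and 1 in NT7 (adjusted p = 0.0295). FGF12, an intracellular family member, had between 2 and 7 counts in HT7 and 5 and 16 in NT7 (adjusted p = 0.223).

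Of the 58 pathway genes, 7 also passed the difference between days 7 and 3, where 7.27% of all genes did. The count was 2 to 4 without HT7 replicate 1 or 3, any NT3 sample or NT7 replicate 2, and 11 without HT7 replicate 2. The effect of hyperoxia was more positive on day 7 for DUSP4 (1.59, adjusted p = 0.00195, edgeR), SULF2 (1.37, adjusted p = 0.00301) and MAP2K1 (0.83, adjusted p = 0.0032). It was more negative for NDST1 (-1.91, adjusted p = 0.00351), GPC3 (-1.91, adjusted p = 0.00387), SDC3 (-1.08, adjusted p = 0.00571) and GAB1 (-1.14, adjusted p = 0.00657). In normoxia edgeR called 0 of the 58 genes between days 3 and 7, and DESeq2 0. An unadjusted p under 0.05 by edgeR was reached by 3 of them, and by 824 of all genes tested.

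Some markers of the cell types that make or receive these ligands also moved with hyperoxia, but not whole lists. The summed level of 5 alveolar type 1 markers of 6 listed lay between 4780 and 6050 CPM in NT7 and between 1650 and 2180 CPM in HT7, and that of 6 endothelial markers of 7 between 2080 and 2410 against 855 and 1220 CPM. On day 5 the same sums were 4300 to 5050 against 1790 to 2960 CPM and 1900 to 2360 against 1170 to 1250 CPM, although VWF, 1 of the endothelial markers, rose on that day (84.2 to 123 CPM in NT5, 211 and 232 CPM in HT5). On day 3, hyperoxic and normoxic sums of both lists overlapped. Sums of other lists did not overlap on that day: the alveolar type 2 sum was higher in HT3 (24600 to 27800 against 17300 to 20200 CPM), as was that of 4 neutrophil markers of 5 (868 to 1230 against 253 to 606 CPM), and the smooth muscle sum was lower (709 to 786 against 831 to 979 CPM). The macrophage sum was higher in HT3 as well (962 to 1310 against 876 to 949 CPM), with no macrophage marker called. On day 7, AGER, RTKN2 and CLIC5, 3 of the 5 alveolar type 1 markers, and CDH5, KDR, TEK and EMCN, 4 of the 6 endothelial markers, fell, and the others did not pass. Of all genes tested, 16.9% fell and 16.7% rose on day 7, and 7.62% fell and 8.56% rose on day 5. The sum of 3 mesothelial markers of 5 was 76.5 to 168 CPM in NT7 and 10.6 to 36.9 CPM in HT7, a fall of UPK3B (log2FC -3.10). On day 5 it was 78 to 157 CPM in NT5 and 16.2 to 48.1 CPM in HT5, and UPK3B did not pass (adjusted p = 0.0554, edgeR). WT1 (log2FC 0.56) and LRRN4 (log2FC 0.50), the other mesothelial markers, had values of the opposite sign and did not pass. Fibroblast markers (7 of 8) overlapped on day 7, with 7650 to 9960 CPM in NT7 and 7250 to 8180 CPM in HT7, but lay lower in hyperoxia on day 3 (7020 to 8510 against 9450 to 11700 CPM) and on day 5 (5630 to 7140 against 8070 to 9000 CPM). Their sum is mostly collagen RNA. On day 7 TCF21, a marker of lung mesenchyme, fell (174 to 244 CPM in NT7, 51.6 to 101 CPM in HT7), while LUM (48 to 66.1 CPM in NT7, 117 to 163 CPM in HT7) and FBLN1 (log2FC 1.33) rose. The summed alveolar type 2 markers (6 of 7), mostly surfactant genes, overlapped on day 7, at 17100 to 23100 and 13300 to 29200 CPM. NAPSA of this list fell (104 to 163 CPM in NT7, 26.4 to 81.2 CPM in HT7), while the others did not pass, with SLC34A2 lower (1250 to 1570 against 187 to 1050 CPM) and SFTPA1 higher (3120 to 3600 against 5100 to 10200 CPM) in every HT7 sample. The sum of the smooth muscle markers (4 of 5) was 709 to 902 CPM in NT5 and 421 to 475 CPM in HT5, where MYH11 and TAGLN fell, and it overlapped on day 7 (638 to 857 against 447 to 681 CPM), where MYH11 fell. The sum of the macrophage markers (5 of 5) was higher in HT7 (1680 to 2310 CPM) than in NT7 (1060 to 1250 CPM), which CD68 carried. CD68 rose (log2FC 1.21), MARCO fell (log2FC -2.19), and the other 3 did not pass. On day 5 the sum was 817 to 1390 CPM in NT5 and 1600 to 1640 CPM in HT5, and CD68 rose (log2FC 0.86). The sum of 2 erythroid markers of 5 was 114 to 194 CPM in NT7 and 43.2 to 63.5 CPM in HT7, where ALAS2 fell (log2FC -1.61). On day 5 the erythroid sum was 91.1 to 168 CPM in NT5 and 64.8 to 73.8 CPM in HT5, with no erythroid marker called. The neutrophil sum overlapped on day 7 (777 to 947 against 842 to 2690 CPM). No marker of these lists that had an entry was at 0 in all samples. The part of these shifts in the FGF values was not tested.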

How the data were processed

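RNA-seq covered 17 lung homogenates. The labels and the methods name the right lung, and the results text of the study names the left. Per the labels and methods, the authors prepared stranded poly(A) libraries, sequenced paired-end reads and deposited raw counts for each locus, which were not normalized. The submitters' processing notes name FastQC, STAR 2.7.10a and OryCun2.0, and the counting program is not given in the sources used here. Where a locus carries several annotated genes, the table repeats its counts for each of them, and such genes cannot be told apart.

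Groups came from the sample titles. edgeR 4.0.16 was run in R 4.3.3 on the deposited counts. The filter filterByExpr kept 13142 of 13827 genes, and TMM scaling was applied. One quasi-likelihood fit held a mean for each of the 6 groups over all 17 samples, and HT5 with 2 samples thus borrows its spread from the other groups. Benjamini-Hochberg adjustment covered every gene tested. The prior count was 0.125, the SE is the absolute log2FC divided by the root of F, and intervals are 95%. CPM used the TMM factors and the totals of tested entries. Scripts were tested on simulated data. Figures were drawn with matplotlib 3.10.9.

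The FGF genes, the pathway lists and the marker lists were chosen with earlier results of these data known. All members were named in every comparison. Of each pathway list, up to 4 genes with the smallest adjusted p among those passing on day 7 were named, or 2 where none passed, and genes named beyond this rule (SULF1, MAPK3, FLRT2, ETV5, SPRY1, SPRY2, SPRY4 and DUSP6) were chosen after their values were seen. Alternatives were the Wald test of DESeq2 1.42.0, RLE normalization, no count filter, 1 entry per locus, a prior count of 2, a threshold of 0.05, the groups compared only, a replicate block and leaving out each sample in turn.

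Samples that carry the same replicate number were checked for shared deviations from their group means. The correlations were 0.166, 0.131 and 0.199 on day 3, 0.264 and 0.141 on day 5, and 0.174, 0.109 and 0.0695 on day 7. Every pair on days 3 and 5 exceeded 0.1, and on day 7 only the pair of replicate 3 did not. Neither the labels nor the methods say what the numbers stand for. Precision is limited by the number of samples and, for FGF9 with at most 43 counts in a sample, by depth.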

Additional observations from a re-analysis of the deposited data

Results flagged for a closer look

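For 3 FGF genes the effect of hyperoxia differed between days 3 and 7 in edgeR's quasi-likelihood test of the difference, with 3 samples in each of the 4 groups. The effect on FGF1 went from a log2FC of -0.35 on day 3 to -2.38 on day 7, a difference of -2.03 (adjusted p = 0.00172). That on FGFR1 went from -0.37 to -1.45, a difference of -1.08 (adjusted p = 0.00157). That on FGF7 went from 0.00 to 1.93, a difference of 1.93 (adjusted p = 0.00755), a call that 12 of 19 alternatives lost, the replicate block among them (adjusted p = 0.0106). Groups of 3 or fewer samples were not tested for single outlying samples.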

How the results depend on the processing

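Of 629 log2FC values of single FGF genes under alternatives, 582 kept their direction and their side of the threshold, 30 no longer passed, 8 newly passed and 9 changed sign. No value that changed sign had passed. The changes of sign arose when 1 sample was left out: FGF7 on day 3 ranged from -0.28 to 0.22, FGFR2 on day 3 from -0.0458 to 0.20 and on day 5 from -0.72 to 0.0247, FGF2 in the difference between days 7 and 3 from -0.23 to 0.58, and, for NT7 against NT3, FGF1 from -0.0888 to 0.24 and FGF10 from -0.0894 to 0.10.

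On day 5 the count of members passing was the least stable. It was 5 with all groups in the model, 0 when only HT5 and NT5 were fitted, where fewer samples estimate the spread (adjusted p from 0.0142 to 0.0388 for the 5 genes), 7 by DESeq2 and at a threshold of 0.05, and 1 to 5 when 1 sample was left out. FGFR1 was the member that passed without HT5 replicate 2, which leaves 1 HT5 sample assumed to vary like the other groups, and 3 passed without NT5 replicate 3. The pathway genes passing on day 5 ranged from 2 to 15 without 1 sample, against 14. By DESeq2, 24.4% of all genes with an adjusted p passed on day 5. For the difference between days 7 and 3, the members passing were 5 by DESeq2 and 5 at an adjusted p under 0.05, against 3, and 2 to 5 without 1 sample. For this difference DESeq2 passed 15.9% of all genes with an adjusted p, and edgeR 7.27% of all genes tested. Shares of all genes at the threshold of 0.05 were not counted. The pathway genes were 14 by DESeq2, 17 at the threshold of 0.05 and 2 to 11 without 1 sample, against 7. The count of 2 came without HT7 replicate 3 and that of 11 without HT7 replicate 2. With the replicate block, the difference for FGF7 was lost (adjusted p = 0.0106), and the block changed no other call of a member, with 0, 5 and 6 members passing on days 3, 5 and 7. FGF9 had no value on day 7 with HT7 and NT7 fitted alone, since the count filter removed it. On days 3 and 7 the members passing were 0 and 5 to 8 under all alternatives run. With 2 or 3 samples per group and at most 43 counts of FGF9, small changes of the FGF genes could not be told from none. The muscle or cartilage signal in 4 samples was not tested for its part beyond leaving each out. The part of the lower muscle and cartilage sums in HT7 was not tested.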

Other observations

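The ratio of FGF7 to FGF10 counts within a sample, chosen after the values of both genes were seen and so not tested, lay between 0.0985 and 0.296 in the 9 normoxic samples and between 0.193 and 0.222 in HT3. It was 0.878 to 1.19 in HT5 and 0.954 to 2.59 in HT7, so no HT5 or HT7 sample overlapped the samples of the other groups. Both ligands use the epithelial form of FGFR2. Counts of the whole FGFR2 gene, which do not separate its splice forms, overlapped between hyperoxia and normoxia on every day, on day 7 through HT7 replicate 2 alone.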
